A study of Rattus norvegicus with 6 samples.

Results

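Chromosome 7 carried 8705 of the 151302 accessible regions that were listed for rat kidney, or 5.75% of the list. Its regions were taken by chromosome name, and the stretches described below were chosen by the measured density of regions in the first 20 Mb, so their extremes are given as a description and without a test. In that part of the chromosome, 5.67 Mb without a single region was followed, after a thin scatter of regions, by 2 Mb that held 438 regions. This dense domain lay at chr7:11000001-13000000 and the empty stretch at chr7:3791803-9458367 (rn6 build, 1-based). Outside the domain the first 20 Mb was sparse. Pooled over its 1-Mb windows with 1 to 99 regions, the median width was 461 bp, against 384 bp in such windows farther along the chromosome. Single windows of this kind varied, from 245 bp in chr7:13000001-14000000 to 559 bp in chr7:15000001-16000000.

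The regions came from ATAC-seq, in which a transposase cuts and tags DNA that is not wrapped in nucleosomes. Kidneys were from Dahl S (SS/Jr) rats, an inbred strain whose blood pressure rises on a high-salt diet, and both groups shared this genotype. The 3 untreated libraries had the treatment label None, and the 3 treated libraries came from rats given 1,3-butanediol at 20% in water, which the liver turns into the ketone body β-hydroxybutyrate. The series describes males and females and 6 weeks of supplementation, while age, and the sex behind each library, do not appear in the sources used here. The study asked whether the ketone body changes chromatin in the kidney. A single merged list was deposited, in which no region has a count, a score or a group. Library depth was therefore unknown, nothing below is assigned to a group, and no error between animals can be given. Regions, windows and chromosomes of 1 list are not replicates, and intervals below cover counting error only.

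Open chromatin in a nucleus is concentrated at promoters and enhancers, so stretches rich in active genes tend to hold many accessible regions. Large families of sensory receptor genes, such as the olfactory receptors, lie in long arrays that are kept silent in most tissues outside the nose. Zinc finger genes of the KRAB type also lie in arrays and are often packed in repressive chromatin.

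The order of genes was read from the RefSeq table of the GRCr8 build, since no rn6 annotation or sequence was used. On chromosome 7 of that build, 57 protein-coding genes precede a cluster of 76 olfactory receptor genes that runs from Or10p22 to Or9k7 with 2 other coding genes inside it. Among the 57 are Cs, which encodes citrate synthase of the tricarboxylic acid cycle, and Cdk2, a kinase of the cell cycle. The next 143 coding genes hold no olfactory receptor. Neurod4, a neuronal transcription factor, is the first of them, and 12 zinc finger genes are among the 15 at the start of this interval. Later genes of the interval include Eef2, a translation elongation factor, Ndufs7, a subunit of respiratory complex I, and Gpx4, which reduces lipid peroxides. The genes named from the 57 and the 143 are examples, and their activity in these kidneys was not examined. A second cluster of 12 olfactory receptor genes, from Or7a44 to Or7c70, follows. Of the 20 autosomes, chromosome 7 has the fourth largest olfactory receptor cluster, and chromosome 3 has the largest with 230 genes. Chromosomes 8 and 1 follow with 97 and 81. The longest empty stretches of chromosomes 3, 8 and 1 in the list measured 1.68, 1.16 and 1.76 Mb, and their places relative to the clusters were not tested. No position was carried over from GRCr8 to rn6, so whether the empty stretch holds the receptor genes, or the dense domain the genes after them, was not tested.

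As a whole, chromosome 7 was an ordinary autosome. Its density was 59.9 regions per Mb of the 145 Mb between its first region, chr7:383207-383577, and its last, chr7:145694448-145694656. This was 1.02 times the autosomal mean of 58.6 ± 10.6 regions per Mb (SD over 20 autosomes) and the eighth highest value. Accessible regions covered 3.01% of the span, against 2.91 ± 0.596% on the other 19 autosomes (SD). The median width was 401 bp, with quartiles of 286 and 617 bp, within the 387 to 414 bp of the other autosomes. The median 1-Mb window held 53 regions, and the other autosomes ranged from 35 to 88.

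The extremes within the chromosome were not ordinary in rank. Its longest empty stretch, its fullest 1-Mb window, its number of empty 1-Mb windows and its largest change between neighbouring windows each ranked first among the 20 autosomes. The longest empty stretch of any other autosome measured 2.43 Mb, on chromosome 4, and their mean was 1.77 ± 0.407 Mb (SD, 19 autosomes). The fullest window of any other autosome held 187 regions, on chromosome 3, and their mean was 166 ± 13.7. Of the 144 whole 1-Mb windows of chromosome 7, 9 were empty, while the other autosomes had from 0 to 7. Chromosomes 6 and 8, the nearest in span with 148 and 133 Mb, had 2 and 0 empty windows, longest empty stretches of 2.04 and 1.16 Mb, and fullest windows of 162 and 171 regions. With 1 chromosome 7 and no replicate list, these ranks carry no test.

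**Figure D1:**
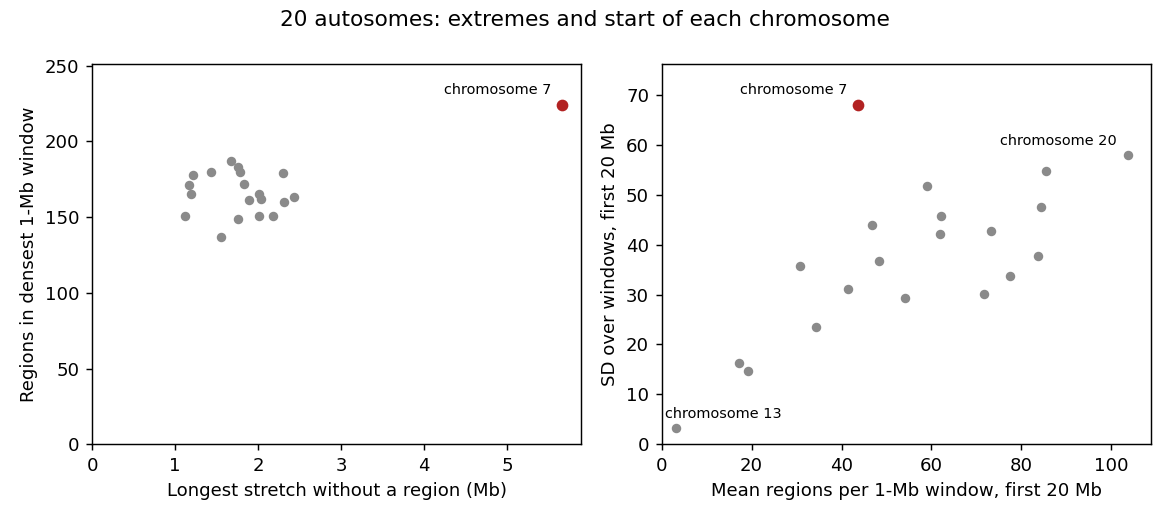
Left: longest stretch without a region (Mb, x axis) and regions in the densest 1-Mb window (y axis) for each of the 20 autosomes. Right: mean (x axis) and SD (y axis) of regions per whole 1-Mb window in the first 20 Mb of each autosome. Each point is 1 autosome and chromosome 7 is red. It stands at 5.67 Mb and 224 regions on the left, and at a mean of 43.6 with an SD of 68.0 on the right, the highest SD of the 20.

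The start of chromosome 7 held fewer regions than the rest but spread over a wider range. Its 19 whole windows in the first 20 Mb had a median of 13 regions, quartiles of 0 and 50.5, and a highest value of 224. The 125 windows beyond had a median of 56, quartiles of 23 and 90, and a highest value of 180. The SD was 1.56 times the mean in the first 20 Mb and 0.728 times beyond. The first 20 Mb thus held 7 of the 9 empty windows and also the 2 fullest windows. Among the starts of the 20 autosomes, the SD of 68.0 regions was the highest, followed by 57.9 on chromosome 20, while the mean of 43.6 ranked 14th. Chromosome 13 had the emptiest start, with a mean of 3.17 regions per window.

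**Figure D2:**
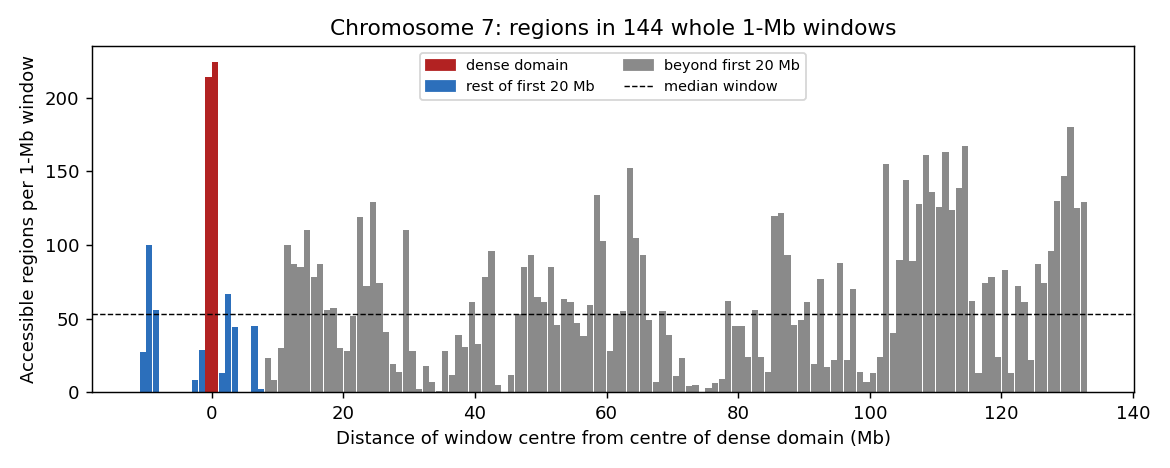
Number of accessible regions (y axis) in each of the 144 whole 1-Mb windows of chromosome 7, by distance of the window from the centre of the dense domain (Mb, x axis). Bars are counts in the pooled list, without replicates. The dense domain (red, 214 and 224 regions) stands above every other window of the chromosome, the highest of which holds 180. The dashed line is the median of 53.

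Before the empty stretch, the first 4 Mb held 217 regions, or 54.3 per Mb. They were not spread evenly. The windows chr7:1000001-2000000, chr7:2000001-3000000 and chr7:3000001-4000000 held 27, 100 and 56 regions. At the finer scale of 100 kb, the 10 windows of chr7:2400001-3400000 held 131 regions, from 9 to 19 each. This block ended abruptly. Its last region, chr7:3399286-3399771, was 486 bp wide, and the next, chr7:3791319-3791802 with 484 bp, lay alone 391.5 kb farther on and formed the left edge of the empty stretch.

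The empty stretch spanned 3.90% of the chromosome's span, and 56 whole 100-kb windows lay within it. It was 1044 times as long as the median gap between neighbouring regions of the chromosome, 5427 bp, and 2.38 times as long as the next longest empty stretch. Both edges were thin within 200 kb, with 1 region on the left and 2 on the right. Farther out the left side was fuller than the right. On the left, 20 regions lay within 500 kb and 81 within 1000 kb. On the right, the edge was a region of 388 bp at chr7:9458368-9458755, the next region was 199 kb away at chr7:9658070-9658429, and 8 regions lay within 500 kb and 16 within 1000 kb. The list holds no read depth and no mappability, so closed chromatin and DNA to which reads could not be assigned cannot be told apart in this stretch.

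From the right edge of the empty stretch to the start of the dense domain, 37 regions were scattered over 1.54 Mb, with a median gap of 20874 bp. Of these, 4 were 1 kb or wider. The density then rose over several 100-kb windows. In the 5 windows of 100 kb before the domain the counts were 1, 0, 3, 7 and 10, and in the first 5 windows inside it they were 20, 29, 24, 17 and 20. At the far edge the fall was as steep. The last 5 windows inside held 21, 23, 25, 24 and 13 regions, and the first 5 outside held 5, 1, 0, 1 and 0. The sum over 500 kb was therefore 21 before and 110 after the left edge, and 106 before and 7 after the right edge.

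On the 1-Mb scale the count went from 29 to 214 on entering the domain and from 224 to 13 on leaving it. These were the largest 2 steps among the 2567 pairs of neighbouring autosomal windows, with changes of 185 and 211 regions. The next largest, 159 regions, was on chromosome 5. The median step was 26 regions over all autosomes and 27 on chromosome 7.

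**Figure D3:**
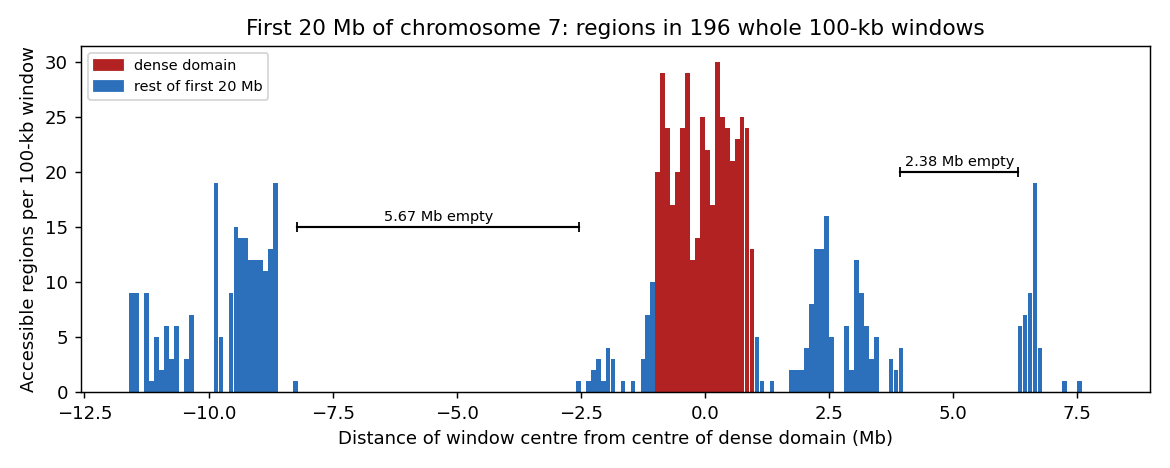
Number of accessible regions (y axis) in the 196 whole 100-kb windows of the first 20 Mb of chromosome 7, by distance from the centre of the dense domain (Mb, x axis). Horizontal lines mark the 2 longest stretches without a region, of 5.67 and 2.38 Mb. Every window of the dense domain (red) holds from 12 to 30 regions, and 111 of the 196 windows hold none.

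The dense domain was the longest run of 1-Mb windows in the first 20 Mb that each held at least 2 times the median count, that is 106 regions. Of the 144 windows of chromosome 7, 25 (17.4%) reached this count, and of the 2443 windows of the other autosomes 407 (16.7%) did, so windows of this class were as common on chromosome 7 as elsewhere. What set the domain apart in rank was its height. Its windows were the only 2 of the autosomes with 200 regions or more. Its 438 regions, 219 per Mb, also exceeded every other pair of neighbouring autosomal windows, the next being 359 regions at chr5:159000001-161000000. When the window was free to slide, the fullest 1 Mb of chromosome 7 was chr7:11892618-12892617 with 237 regions, against at most 203, on chromosome 1, on the other autosomes.

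Within the domain the regions were packed without large holes. All 20 of its 100-kb windows held at least 12 regions, with a median of 23.5, and 15 of them held 20 or more. Beyond the first 20 Mb, 264 of 1256 windows held at least 12 and 51 (4.06%) held 20 or more. The fullest 100-kb windows of the chromosome were chr7:12200001-12300000 with 30 regions and chr7:11100001-11200000 and chr7:11600001-11700000 with 29 each. They were followed by chr7:126500001-126600000 with 28 and chr7:34000001-34100000 with 27, a count that 2 further windows shared. A highest count of 30 was usual for an autosome, since 30 was also the median of the highest counts of the other 19 autosomes. The run of windows over the domain was the longest of the autosomes at a minimum of 12 regions, but not at 8, 10 or 15. At 12 it had 20 windows, ahead of 16 on chromosome 3. That order depended on the minimum, which was chosen after the counts had been seen. With a minimum of 10 the longest run was another one of chromosome 7, 22 windows at chr7:140200001-142400000, and the run over the domain, chr7:10900001-13000000, had 21. With a minimum of 8 the longest was 30 windows at chr7:140200001-143200000. With a minimum of 15 the run inside the domain fell to 10 windows, and 2 other autosomes had runs of 10 or more, the longest 13 on chromosome 5.

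Accessible DNA covered 12.1% of the dense domain, against 3.10% of the chromosome beyond the first 20 Mb, where the density was 62.5 regions per Mb. Covered DNA was thus 3.91 times, and the number of regions 3.50 times, that beyond the first 20 Mb. Regions of the domain were slightly wider, with a median of 436 bp (quartiles 313 and 692 bp) against 397 bp (284 and 604 bp). The median was 455 bp in the rest of the first 20 Mb, and 415 bp in the windows beyond it with at least 106 regions. Regions of 1 kb or more made up 11.4% of the domain (exact 95% binomial interval 8.59 to 14.8%) and 7.80% beyond the first 20 Mb (7.22 to 8.42%), which came to 25 and 4.88 such regions per Mb. In the windows beyond the first 20 Mb with at least 106 regions the share was 9.46% (8.46 to 10.5%), and this interval overlaps that of the domain. At the other end, regions of exactly 200 bp, the smallest width in the list, made up 1.83% of the domain (0.792 to 3.57%). The share was 4.68% beyond the first 20 Mb (4.22 to 5.17%). This share was also low in other dense windows. In 1-Mb windows with 150 to 199 regions it was 2.66% on chromosome 7 and 3.13% on the other autosomes.

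The widest region of the domain was chr7:12422847-12424866 with 2020 bp, the tenth widest of the chromosome and the one region of the first 20 Mb among the 13 that reached 2 kb. It was followed by chr7:11443274-11445091 with 1818 bp and chr7:11676528-11678194 with 1667 bp. The 5 widest of the chromosome, from 2251 to 2795 bp, all lay beyond the first 20 Mb. The first 20 Mb held 863 of the 8705 regions of the chromosome, so its 1 of the 13 was near its share of all regions.

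Neighbours were close in the domain, as its density entails. The median gap was 2864 bp against 5563 bp beyond the first 20 Mb, and the longest gap inside was 22532 bp. A neighbour lay within 1 kb of 46.3% of its regions and of 32.9% beyond. Joining regions less than 500 bp apart lowered these shares to 23.3% and 12.98%. Regions with a neighbour within 500 bp made up 29.2% of the domain, 22.8% of the chromosome beyond the first 20 Mb, and 28.1% of the 23 windows beyond the first 20 Mb that also held at least 106 regions. The longest string of the domain, with gaps under 500 bp, had 4 regions, at chr7:12004671-12007536, and that of the chromosome had 5, at chr7:121230832-121233888.

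Past the domain the chromosome became sparse again. The 3 Mb of chr7:13000001-16000000 held 124 regions, of which 55 fell in the 5 windows of chr7:14100001-14600000. A second empty stretch of 2.38 Mb followed at chr7:15938021-18316249, flanked by regions of 226 and 286 bp. The segment chr7:18000001-20000000 held 47 regions, 45 of them in chr7:18300001-18800000. Together the first 20 Mb counted 863 regions, and 111 of its 196 whole 100-kb windows (56.6%) were empty, against 242 of 1256 (19.3%) beyond.

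Only 3 other stretches of chromosome 7 longer than 1 Mb held no region. They were chr7:55709715-57174375 (1.46 Mb), chr7:85738360-87012042 (1.27 Mb) and chr7:88208608-89271430 (1.06 Mb). The 5 stretches added up to 11.8 Mb, or 8.15% of the span, of which 8.04 Mb lay in the first 20 Mb. In share of span chromosome 7 ranked 5th, and chromosome 13 was highest with 15.1%. Chromosome 2 had 16 such stretches. The long stretch, and not the number of stretches, was what placed chromosome 7 at the extreme.

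Over the whole of chromosome 7, width and spacing changed with the density of the window. In the 37 windows with 1 to 24 regions the median width was 342 bp and 4.75% of regions reached 1 kb. In the 45 windows with 50 to 99 regions these values were 399 bp and 7.52%, and in the 21 windows with 100 to 149 they were 416 bp and 9.57%. The 6 windows with 150 to 199 regions had a median of 415 bp and 9.00%, and the 2 windows of the domain had the highest values of the 6 classes. Close neighbours, within 1 kb, were found for 11.98% of regions in the sparsest class, 42.6% in windows with 150 to 199 regions and 46.3% in the domain. The other autosomes had like values in windows with 150 to 199 regions, at 418 bp, 8.97% and 40.2%.

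The sparse windows around the domain departed from this relation. In the 9 windows of the first 20 Mb with 1 to 99 regions, 36 of 291 regions reached 1 kb, or 12.4%, and the median width was 461 bp. In the 97 windows of the same class beyond the first 20 Mb the values were 6.70% and 384 bp, and in 1930 such windows of the other autosomes they were 7.11% and 389 bp. The starts of the other 19 autosomes, taken in the same way, ranged from 0 to 10.3% with a median of 6.87%, and chromosome 20 was the highest. Chromosome 7 thus had the highest share of the 20, in a comparison that was chosen after the widths had been seen. Of the 36 wide regions, 12 lay in the single window chr7:3000001-4000000, and the rank without that window was not computed. The class was set by the count per 1 Mb, and regions could be clustered inside such a window. In chr7:3000001-4000000, which held 56 regions, the 100-kb windows of chr7:3000001-3400000 held 12, 11, 13 and 19. Of the 67 regions in chr7:14000001-15000000, 55 lay in chr7:14100001-14600000. All 45 of chr7:18000001-19000000 lay in chr7:18300001-18800000. Widths at like density on a finer scale were not compared.

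Wide regions lay on both sides of the empty stretch. Of the 9 sparse windows, the 2 before it held 13 wide regions among 83, or 15.7%, and the 7 after it held 23 among 208, or 11.1%. The 2 before it differed, with 1 wide region of 27 (3.70%) in chr7:1000001-2000000 and 12 of 56 (21.4%) in chr7:3000001-4000000. With the window of 100 regions and the incomplete first window included, the first 4 Mb had the highest share of the 4 segments around the domain. There, 33 of 217 regions reached 1 kb, or 15.2% (exact 95% binomial interval 10.7 to 20.7%), with a median width of 479 bp. In the block chr7:2400001-3400000 the share was 21.4%, with 28 of 131 regions and a median of 517 bp. Of 518 autosomal segments of 4 Mb that held at least 100 regions, the first 4 Mb of chromosome 7 had the third highest share, after chr1:220000001-224000000 with 16.4% and chr8:20000001-24000000 with 16.1%. The median segment had 7.30%. Between the empty stretch and the domain the share was 10.8%, after the domain, in chr7:13000001-16000000, it was 11.3%, and in chr7:18000001-20000000 it was 10.6%. These last 3 rest on 4, 14 and 5 wide regions, and each of their intervals includes the 7.80% found beyond the first 20 Mb.

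**Figure D4:**
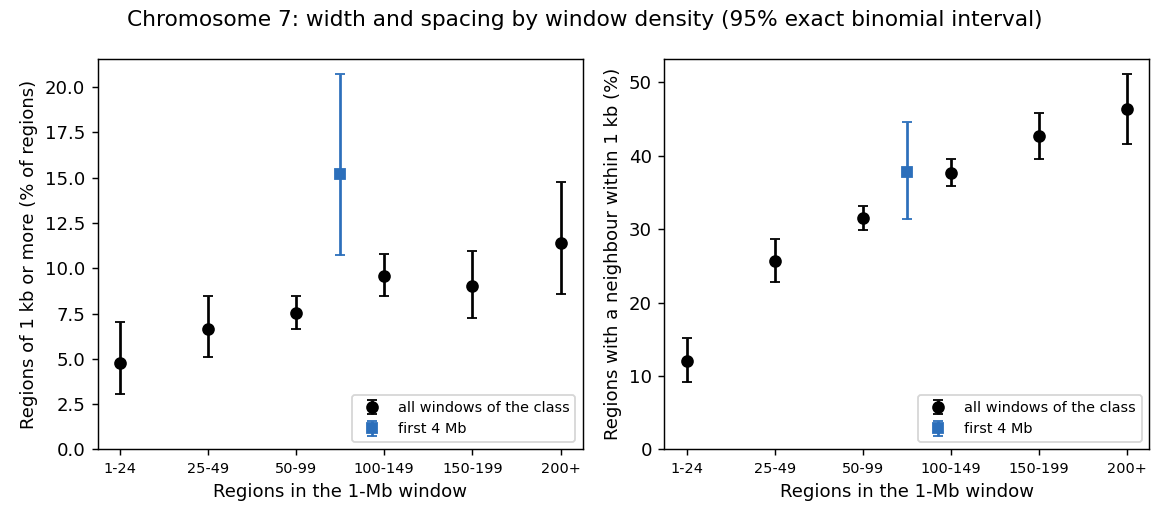
Share of regions that are 1 kb or wider (left, %) and share with a neighbour within 1 kb (right, %) on chromosome 7, by the number of regions in the 1-Mb window (x axis). Black points pool all windows of a class, the last class being the dense domain. The blue square is the first 4 Mb, drawn between the classes of 50 to 99 and 100 to 149 since its windows fall in both and below, and bars are exact 95% binomial intervals that cover counting error only. The blue square is at 15.2% on the left, where these classes have 7.52% and 9.57%, and at 37.8% on the right, where they have 31.5% and 37.7%.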

How the data were processed

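ATAC-seq libraries of rat kidney (3 untreated, 3 given 1,3-butanediol) were grouped by the treatment label. The submitters' processing notes name rn6 as the build and list cutadapt, Trim Galore and FastQC. The sources used here do not name the aligner, the peak caller or the merging rule. A single merged list (chromosome, start, end, name), with no header, was deposited by the authors. Starts were read as 0-based and are printed 1-based.

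Regions were assigned by midpoint to whole windows of 1 Mb and 100 kb between the first and last region of a chromosome. Density is regions over that span. Gaps were measured edge to edge. The dense domain was fixed by the rule of at least 2 times the median count. Named regions were those flanking the longest stretch, the chromosome's ends, the 5 widest, the 3 widest of the domain, the 5 fullest windows of each size, stretches over 1 Mb and the longest strings. Members, windows and rules were chosen with earlier results of these data known, and comparisons of width in sparse windows, steps and runs were added after the values were seen. No test was run. Intervals are exact (Clopper-Pearson). Alternatives kept regions of at least 300 bp, joined regions less than 500 bp apart, left out regions of exactly 200 bp, shifted windows, or used 3 times the median. Functions were tested on simulated data. Gene order came from RefSeq (GRCr8) by symbol, and clusters allowed 2 interrupting genes. Python 3.11.15, numpy 2.4.6, pandas 2.3.3, scipy 1.17.1 and matplotlib 3.10.9 were used.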

Additional observations from a re-analysis of the deposited data

How the results depend on the processing

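Of 29 recomputed values for 7 results, 24 stayed within the counting interval of the value reported, or within 1.5 times it where there was none, and 5 did not. With regions of at least 300 bp alone, the density of the domain over that beyond the first 20 Mb was 3.87, the share of its regions with a neighbour within 1 kb was 37.7%, and 24.2% of 100-kb windows beyond the first 20 Mb were empty. When regions with gaps under 500 bp were merged, which by construction takes away close neighbours, the share with a neighbour was 23.3%. With windows shifted by 500 kb the domain became chr7:10500001-13500000, which takes in sparser flanks, and the ratio was 2.48. The longest empty stretch measured 5.67 Mb in the 3 altered lists, and the domain kept its bounds in them and at 3 times the median. Leaving out or joining regions cannot shorten an empty stretch, so its length there is no check. The domain's windows of 214 and 224 regions also pass 3 times the median of 53, so every value at that setting was unchanged. The 24 values that stayed include these. Leaving out libraries and comparing the groups could not be done, since the list has no value per library. No paired analysis was possible because of the same lack. The unknown depth means that a region missing from the list may be closed or below the caller's threshold.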

Other observations

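Away from its start, chromosome 7 held broader but lower stretches of dense windows. The longest run of 1-Mb windows with at least 100 regions was chr7:119000001-127000000, 8 windows with 1144 regions, or 143 per Mb, from 124 to 167 per window. These 8 Mb held 13.1% of the regions of the chromosome. Near the other end, the 5 windows of chr7:140000001-145000000 held 711 regions, or 142 per Mb, and among them was chr7:142000001-143000000 with 180, the fullest window beyond the first 20 Mb. The next fullest there were chr7:126000001-127000000 with 167 and chr7:123000001-124000000 with 163. Regions of 1 kb or more made up 8.04% of the first of these stretches and 11.1% of the second, and a neighbour within 1 kb was found for 40.6% and 42.9% of regions.

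Some of the widest regions of chromosome 7 lay in the same 4 Mb. Of the 13 regions of 2 kb or more, 4 lay in chr7:75000001-79000000, which held 4.58% of the chromosome's regions. They were chr7:75420970-75423173 (2204 bp), chr7:75596062-75598386 (2325 bp), chr7:77160765-77163042 (2278 bp) and chr7:78090398-78093192 (2795 bp), the widest of the chromosome. A further wide region, chr7:51232049-51234697 with 2649 bp, stood apart from them, and chr7:141052938-141055188 with 2251 bp was in the dense stretch near the end. The 4 Mb were picked after the positions had been seen.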
